A study of Mus musculus with 17 samples.

Results

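The genes described here code for tubulins, kinesins, dynein and dynactin, the building blocks of microtubules and the motors that travel along them. They were chosen by name: every probe set whose only gene symbol in the platform's annotation began with Tuba, Tubb, Tubg, Kif, Klc, Dync, Dynl or Dctn. This took in 71 of the 12488 probe sets on the array, for 52 genes, and left out 5 probe sets that carried several symbols. Of the 71, 54 probe sets for 44 genes exceeded a signal of 41.1 (the median over the whole table) on 3 or more arrays. They were tested among 8067 such probe sets in all.

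Microtubules are hollow polymers of alpha and beta tubulin dimers. Gamma tubulin and its ring complex start new ones. Kinesins mostly walk towards the growing plus end or act on microtubule ends, and cytoplasmic dynein, with its cofactor dynactin, walks towards the minus end. Together they build the spindle, divide the cell and carry cargo. The mouse oocyte assembles its meiotic spindle without centrioles, and the early cleavage spindles of the mouse embryo also lack them.

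The samples were mouse oocytes (4 arrays), 1-cell embryos (3), 2-cell embryos (3), 8-cell embryos (4) and blastocysts (3), each on its own single-colour Affymetrix array. Total RNA was used, and the labels state that it was amplified by in vitro transcription in 2 rounds. The labels name no strain, age, treatment or maturation stage of the oocytes. They also do not say whether the arrays of a stage rest on separate animals or pools, so p-values measure only how far these arrays spread, which may be technical. As in any pooled sample, fewer cells of a type and less RNA per cell cannot be told apart.

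Arrays of one stage correlated with each other at 0.935 to 0.979 and at most at 0.742 to 0.891 with another stage. The summed signal of 6 oocyte markers was 187 to 254 in blastocysts and 26075 to 27450 in oocytes. The summed signal of 4 trophectoderm markers was 6024 to 7446 in blastocysts and 28 to 45.5 in oocytes. Cdx2 and Krt19, which are among them, stayed below the filter. Markers of the oviduct (4 of 5 on the array) summed to 53.4 to 136 in oocytes and 1-cell embryos, 947 to 1600 in 2-cell embryos, 60.3 to 7136 in 8-cell embryos and 81.1 to 91.2 in blastocysts. In 8-cell embryos, array 2 had a signal of 6212.4 for Ovgp1, an oviduct glycoprotein, against 43.1 to 114.1 on the others. Blood markers (3 of 4 on the array, Ptprc below the filter) summed to 21.7 to 90.6 in oocytes and 1-cell embryos, 171 to 230 in 2-cell embryos, 102 to 193 in 8-cell embryos and 46.3 to 110 in blastocysts. The 18S ribosomal RNA control averaged 14.19 on the log2 scale in 1-cell embryos and 8.44 to 10.32 at the other stages. The gap between 3′ and 5′ control probes was smaller for Gapdh in 8-cell embryos (1.03 against 2.11 to 2.63 at the other stages, log2) and for Actb in blastocysts (1.14 against 1.95 to 2.08). The part of these differences in the results was not tested.

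Changes are differences of mean log2(signal + 11) ± SE from limma, with p-values adjusted over all 8067 probe sets (Benjamini and Hochberg). Calls were made below an adjusted p of 0.05. The scale understates changes of dim probe sets, and a change against a stage below the filter is not exact. The authors had brought all arrays to the same mean signal. Scaling them instead on 9 control probe sets for RNA added at hybridisation (spike scaling) moved the median of all tested probe sets by -1.01 in 1-cell embryos minus oocytes, 0.19 in 2-cell minus 1-cell embryos, -0.56 in 8-cell minus 2-cell embryos, 1.04 in blastocysts minus 8-cell embryos and -0.35 in blastocysts minus oocytes. Directions below are therefore relative to the total signal of each array, and each called direction that turns under spike scaling is marked where it stands. Probe sets whose name carries a letter such as f, s, r, i or g share probes with, or can hybridise to, other transcripts. Of the 71, 29 were of this kind, and of the 54 tested, 23.

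With the authors' scaling, the step between oocyte and 1-cell embryo had the most calls of the consecutive steps. Under spike scaling the step between 8-cell embryo and blastocyst had the most (40, against 38). On probe sets without a marked name alone, the step between 2-cell and 8-cell embryo had the most (18, against 14 between oocyte and 1-cell embryo). That step also had the most calls over all 8067 probe sets (54.1%, against 37.1% between oocyte and 1-cell embryo). The share of all probe sets without a marked name that was called was not counted. In 1-cell embryos against oocytes, 32 of the 54 tested probe sets were called (59.3%, against 37.1% of all probe sets tested). Of these, 11 were higher (20.4%, against 17.3%) and 21 lower (38.9%, against 19.8%). Of the 32 calls, 14 were on probe sets without a marked name. The falls among those 14 were of Kif2c, Kif4, Kif16b, Kif9 92490_at, Dctn3, Dctn5 and Dctn6, and every other fall was on a marked probe set. The call of Kif16b was lost without any of 4 arrays. Under spike scaling the 11 rises were no longer called, and 38 probe sets were lower. Of all 8067 probe sets, 30 were then higher and 4638 lower. In 2-cell against 1-cell embryos 22 were called (40.7%, against 47.2%), 9 higher (16.7%, against 26.0%) and 13 lower (24.1%, against 21.2%). In 8-cell against 2-cell embryos 28 were called (51.9%, against 54.1%), 12 higher (22.2%, against 25.8%) and 16 lower (29.6%, against 28.3%). Spike scaling left 1 higher there, Tubgcp3, and 28 lower, against 840 higher and 3239 lower of all 8067. In blastocysts against 8-cell embryos 19 were called (35.2%, against 42.5%), 12 higher (22.2%, against 21.8%) and 7 lower (13.0%, against 20.7%). Spike scaling gave 39 higher there and 1 lower, Kif3c, against 4641 higher and 193 lower of all 8067. Over the whole course, blastocysts against oocytes, 35 were called (64.8%, against 64.3%), 12 higher (22.2%, against 32.2%) and 23 lower (42.6%, against 32.1%). Spike scaling gave 6 higher and 26 lower, against 1861 higher and 2996 lower of all 8067. The share called in either direction was thus above that of all probe sets in 1-cell embryos, below it or near it in the later steps, and near it over the whole course, where the share lower was above and the share higher below.

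By limma's moderated F test over the 5 stages, 49 of the 54 differed between stages (90.7%, against 84.7%). The F test counts of each class below are to be read against that 84.7%. Of the 54, 6 probe sets (11.1%, against 8.65%) were called in all 4 consecutive steps: Kif23, both probe sets of Kif20a, Dync1i2, Dynll1 and Dctn3. Another 11 were called in none of the 4, and the share of all probe sets called in none was not counted. The highest stage mean, with the authors' scaling, fell in oocytes for 18 of the 54 (33.3%, against 15.8% of all probe sets tested), in 1-cell embryos for 13 (24.1%, against 24.2%), in 2-cell embryos for 7 (13.0%, against 18.1%), in 8-cell embryos for 4 (7.41%, against 20.8%) and in blastocysts for 12 (22.2%, against 21.1%). These shares were not counted under spike scaling. Of the 54, 33 were above the filter on every array. The other 21 passed on some arrays and may have passed through the stage where they are high, so these shares describe only the probe sets that could be tested.

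**Figure D1:**
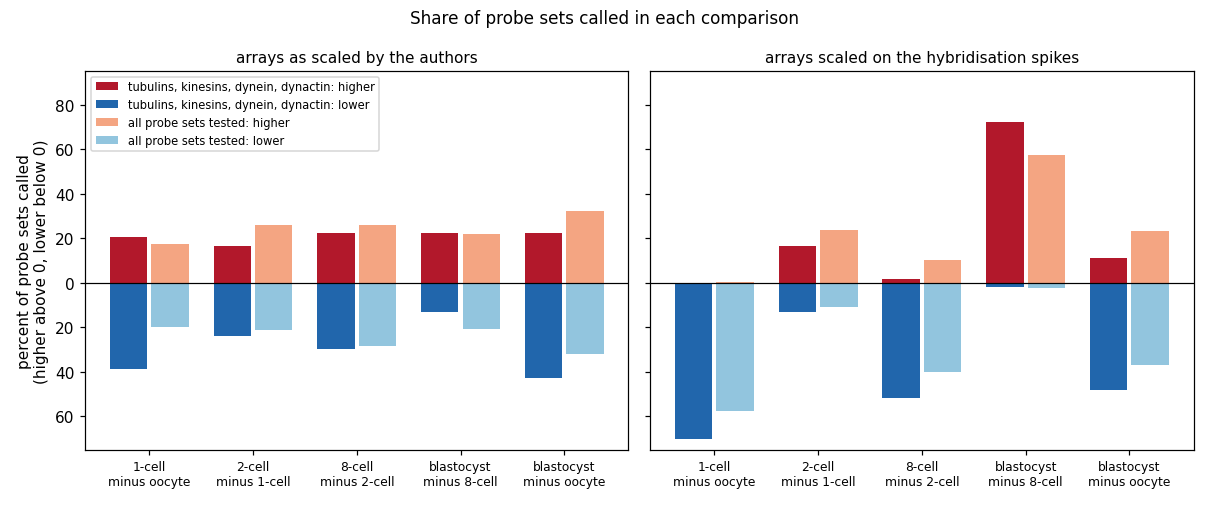
Percent of the 54 tested tubulin, kinesin, dynein and dynactin probe sets (dark bars) and of all 8067 tested probe sets (pale bars) called higher (above 0) or lower (below 0) in each comparison, with the arrays as the authors scaled them (left) and scaled on the hybridisation spikes (right). In 1-cell embryos minus oocytes 38.9% of the 54 were lower, against 19.8% of all, and most of these falls are on probe sets with a marked name. The spike-scaled panel has no higher calls for the 54 there. Its calls for them are nearly all lower in 8-cell embryos (28, against 1 higher) and nearly all higher in blastocysts against 8-cell embryos (39, against 1 lower). The calls of all 8067 in that panel lean the same way. They are 30 higher and 4638 lower in 1-cell embryos, 840 and 3239 in 8-cell embryos, and 4641 and 193 in blastocysts against 8-cell embryos.

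**Figure D2:**
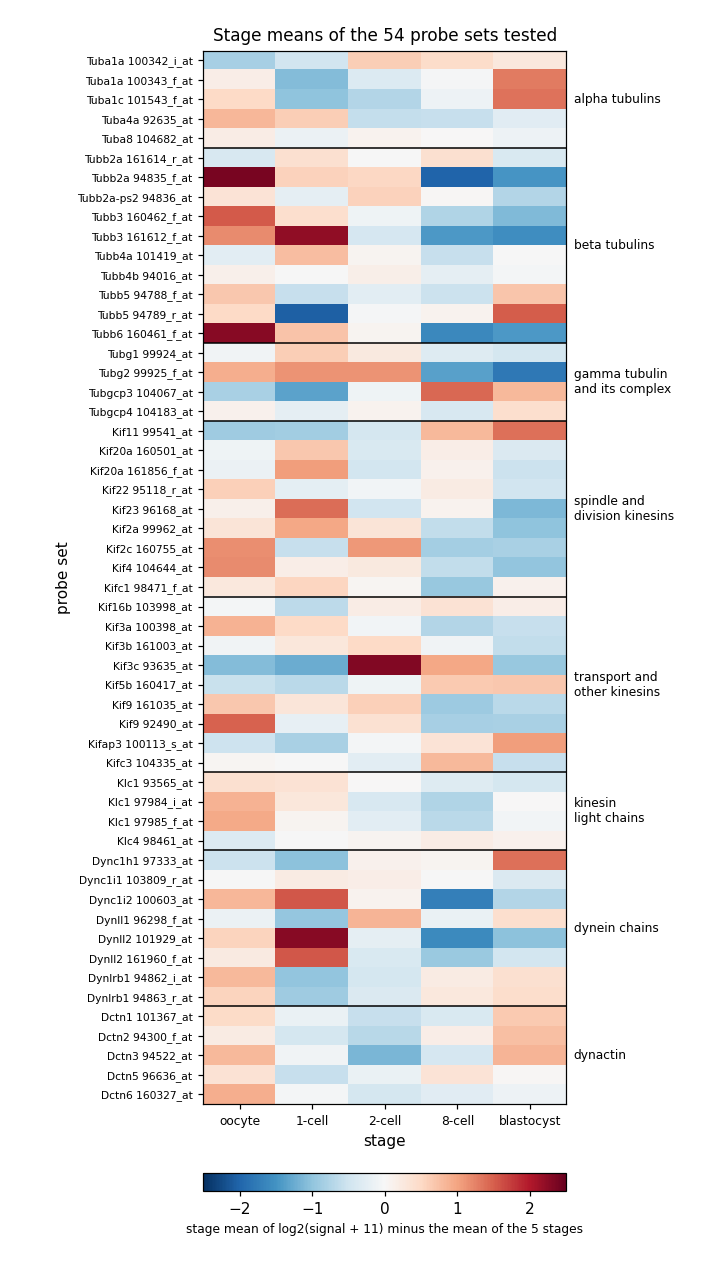
Stage means of log2(signal + 11) for each of the 54 tested probe sets (rows, grouped by class), minus the mean of the 5 stages for that probe set (colour), with the arrays as the authors scaled them. Tubb2a 94835_f_at and Tubb6 are highest in oocytes, Kif23, both probe sets of Kif20a and both of Dynll2 in 1-cell embryos (Kif20a 160501_at lies below oocytes there under spike scaling), Kif3c in 2-cell embryos, and Tuba1c, Kif11 and Dync1h1 in blastocysts.

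The alpha tubulins Tuba1a and Tuba1c dipped in 1-cell embryos and were highest in blastocysts, by 1 probe set each. Of 6 alpha tubulin probe sets, 5 were tested and 4 differed by the F test. Tuba1a, an alpha isotype best known from the developing brain, was measured by a probe set (100343_f_at) with signals of 821.8, 470.4, 582.5 and 777.5 in oocytes, 262.2, 285.9 and 249.3 in 1-cell embryos, 481.2, 548.6 and 347.5 in 2-cell embryos, 657.8, 522.6, 621.8 and 484.5 in 8-cell embryos, and 1438.7, 1542.6 and 1356.3 in blastocysts. All 1-cell arrays lay below all others and all blastocyst arrays above. It fell in 1-cell embryos (log2 change -1.25 ± 0.19, adjusted p = 1.79e-05) and rose in 2-cell embryos (0.74 ± 0.20, adjusted p = 0.00429). A further rise came in blastocysts against 8-cell embryos (1.33 ± 0.19, adjusted p = 7.44e-06).

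Tuba1c (101543_f_at), a closely related alpha isotype, gave signals of 2510.4, 1715.5, 2366.2 and 1991.1 in oocytes, 673.2, 839.9 and 715.8 in 1-cell embryos, 977.3, 960.3 and 779.1 in 2-cell embryos, 1624.9, 1236.7, 1660.6 and 1057.2 in 8-cell embryos, and 3725.5, 3753.8 and 4162.2 in blastocysts. The order was the same, with the blastocyst arrays above all others and the 1-cell arrays overlapping those of 2-cell embryos alone. A fall in 1-cell embryos (-1.51 ± 0.17, adjusted p = 5.14e-07) was followed by a rise in blastocysts against 8-cell embryos (1.49 ± 0.17, adjusted p = 5.24e-07). In 8-cell against 2-cell embryos it was higher (0.60 ± 0.17, adjusted p = 0.00563), but not under spike scaling (-0.04). Against oocytes, blastocysts were higher by 0.87 ± 0.17, adjusted p = 1.55e-04, a call that spike scaling ended (0.50, adjusted p = 0.180).

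The other Tuba1a probe set, 100342_i_at, did not dip in 1-cell embryos. Its signals were 119.6, 159.7, 209.2 and 178.2 in oocytes, 201.0, 295.5 and 161.1 in 1-cell embryos, 323.5, 648.8 and 482.4 in 2-cell embryos, 517.9, 335.7, 672.6 and 252.9 in 8-cell embryos, and 285.3, 285.7 and 581.9 in blastocysts. The 2-cell arrays lay above all 1-cell arrays and the blastocyst arrays above all oocyte arrays, while the embryo arrays spread widely within a stage. The rise in 2-cell embryos (1.09 ± 0.33, adjusted p = 0.00991) was not called without 1-cell array 3 or 2-cell array 2 (adjusted p = 0.0546 to 0.0666). The rise in blastocysts against oocytes (1.10 ± 0.31, adjusted p = 0.00418) was not called without blastocyst array 3 (adjusted p = 0.0507) or under spike scaling (0.76, adjusted p = 0.0564). Its change in 1-cell embryos was 0.36 ± 0.31, adjusted p = 0.415, where 100343_f_at fell. Tuba4a was lower in 2-cell embryos (68.6 ± 12.8, SD, n = 3) than in 1-cell embryos (175 ± 45.2, n = 3), a change of -1.21 ± 0.31, adjusted p = 0.00240. Tuba8 was called in no comparison, with stage means of 175 to 220.

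Beta tubulins took several courses. Tubb6 and 1 probe set each of Tubb2a and Tubb3 were highest in oocytes, and both Tubb5 probe sets dipped in 1-cell embryos and rose in blastocysts. Of the other 5 probe sets, 3 had their highest mean in 1-cell embryos, where Tubb3 161612_f_at and Tubb2a 161614_r_at turn against oocytes under spike scaling, and 2 in 2-cell embryos. All 10 beta tubulin probe sets were tested and 8 differed by the F test. Tubb2a, an isotype abundant in neurons, was measured by 94835_f_at at 4719.5, 3614.2, 4067.0 and 4124.3 in oocytes, 989.5, 1298.4 and 1311.4 in 1-cell embryos, 1778.1, 1066.4 and 779.0 in 2-cell embryos, 156.5, 238.3, 171.3 and 200.8 in 8-cell embryos, and 343.8, 208.0 and 297.1 in blastocysts. Oocyte arrays were above all others and the 8-cell and blastocyst arrays below all others. One fall came in 1-cell embryos (-1.78 ± 0.22, adjusted p = 1.84e-06) and another in 8-cell against 2-cell embryos (-2.52 ± 0.22, adjusted p = 4.29e-09). Blastocysts differed from oocytes by -3.84 ± 0.22, adjusted p = 2.43e-12.

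Tubb6 (160461_f_at), a widely expressed beta isotype, had signals of 4661.9, 4241.2, 4515.2 and 4820.7 in oocytes, 1406.0, 1444.9 and 1816.0 in 1-cell embryos, 1339.9, 885.8 and 807.2 in 2-cell embryos, 301.2, 320.3, 331.4 and 254.9 in 8-cell embryos, and 455.7, 336.1 and 251.6 in blastocysts. The order over the stages was that of Tubb2a, with 8-cell and blastocyst arrays overlapping each other. It was lower in 1-cell embryos (-1.55 ± 0.19, adjusted p = 1.17e-06) and in 8-cell embryos against 2-cell embryos (-1.68 ± 0.19, adjusted p = 1.44e-07). Blastocysts differed from oocytes by -3.71 ± 0.19, adjusted p = 2.85e-13. Its fall in 2-cell against 1-cell embryos (-0.64 ± 0.20, adjusted p = 0.0122) was not called without 1-cell array 3, 2-cell array 2 or 2-cell array 3 (adjusted p = 0.0548 to 0.0715), after quantile normalization (-0.46, adjusted p = 0.0903) or under spike scaling (-0.42, adjusted p = 0.418).

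Tubb3, the isotype used as a neuronal marker, had 2 probe sets called in opposite directions in 1-cell embryos against oocytes with the authors' scaling. Under spike scaling both changes were negative (-0.06, not called, for 161612_f_at and -2.23 for 160462_f_at). The signals of 161612_f_at were 364.7, 266.4, 329.1 and 306.1 in oocytes, 711.2, 721.0 and 568.0 in 1-cell embryos, 127.2, 93.6 and 75.2 in 2-cell embryos, 80.2, 39.9, 27.1 and 35.5 in 8-cell embryos, and 52.2, 54.8 and 17.9 in blastocysts. The 1-cell arrays were above all others, and the 8-cell and blastocyst arrays were low and overlapped. Its signal was higher in 1-cell embryos than in oocytes (1.05 ± 0.29, adjusted p = 0.00598), but not under spike scaling (-0.06). It then fell in 2-cell embryos (-2.65 ± 0.31, adjusted p = 2.51e-07) and again in 8-cell embryos (-1.01 ± 0.29, adjusted p = 0.00516). The signals of the other probe set, 160462_f_at, were 2527.6, 2324.9, 2671.1 and 2621.4 in oocytes, 1034.4, 1262.3 and 1232.7 in 1-cell embryos, 918.0, 772.8 and 728.5 in 2-cell embryos, 558.4, 561.1, 464.5 and 477.3 in 8-cell embryos, and 379.5, 363.1 and 464.0 in blastocysts. These were highest in oocytes, with a change of -1.10 ± 0.14, adjusted p = 2.42e-06 in 1-cell embryos and of -2.63 ± 0.14, adjusted p = 7.09e-13 in blastocysts, both against oocytes. Its step between 8-cell embryos and blastocysts (-0.35 ± 0.14, adjusted p = 0.0520) was not called, and turned to 0.81, adjusted p = 0.0282, under spike scaling.

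Tubb5, the beta isotype of most dividing cells, was measured by 94788_f_at at 1829.2, 1519.9, 1936.3 and 1965.8 in oocytes, 660.2, 798.8 and 806.7 in 1-cell embryos, 814.7, 982.0 and 1038.3 in 2-cell embryos, 909.5, 797.8, 732.3 and 673.2 in 8-cell embryos, and 1721.6, 1464.9 and 2365.6 in blastocysts. Oocytes and blastocysts overlapped, and both lay above the stages between them. It was lower in 1-cell embryos (-1.25 ± 0.17, adjusted p = 4.05e-06) and rose in blastocysts against 8-cell embryos (1.22 ± 0.17, adjusted p = 5.08e-06). Blastocysts and oocytes differed by 0.01 ± 0.17, adjusted p = 0.969. Its other probe set, 94789_r_at, dropped in 1-cell embryos as well (-2.54 ± 0.23, adjusted p = 1.28e-08). It rose by 2.01 ± 0.24, adjusted p = 4.18e-07 in 2-cell embryos and by 1.43 ± 0.23, adjusted p = 2.72e-05 in blastocysts.

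Of the dimmer beta tubulins, Tubb2a 161614_r_at and Tubb4a were higher in 1-cell embryos than in oocytes (0.81 ± 0.31, adjusted p = 0.0422, and 1.04 ± 0.37, adjusted p = 0.0311), where spike scaling turned Tubb2a to -0.17 and left Tubb4a at 0.08. Neither call held with an offset of 1, without the filter or with the replicate number as a block. The 161614_r_at probe set was also lower in blastocysts than in 8-cell embryos (-0.78 ± 0.31, adjusted p = 0.0452), which turned to 0.24 under spike scaling and was lost when any of 11 arrays was left out. So Tubb2a, like Tubb3, had probe sets called in opposite directions in 1-cell embryos with the authors' scaling, and which transcripts each one reports was not tested. Nor was this tested for Tubb6, which rests on a single probe set with a marked name. Tubb4b was called in no comparison. The pseudogene Tubb2a-ps2 was lower in blastocysts than in oocytes (-1.06 ± 0.46, adjusted p = 0.0470), a call lost without any of 11 arrays.

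**Figure D3:**
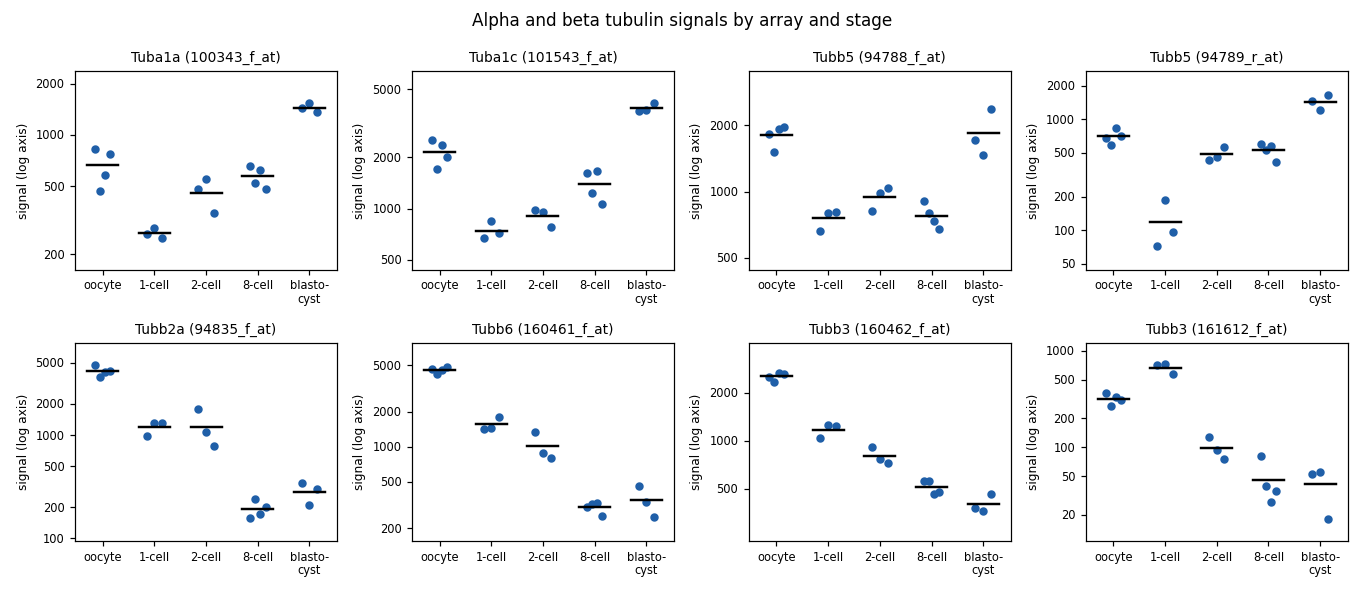
Signals of 8 alpha and beta tubulin probe sets on each of the 17 arrays (points) with the stage mean (bar), by stage, on a log axis, with the arrays as the authors scaled them. Tuba1a 100343_f_at, Tuba1c and both Tubb5 probe sets are lower in 1-cell embryos than in oocytes; Tubb2a 94835_f_at, Tubb6 and Tubb3 160462_f_at are highest in oocytes, and Tubb3 161612_f_at is highest in 1-cell embryos (higher than oocytes by 1.05 ± 0.29, against -0.06 under spike scaling).

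Gamma tubulin Tubg2 dropped after the 2-cell stage, while Tubgcp3 of its complex rose. Of 5 probe sets for gamma tubulin and its complex, 4 were tested and all 4 differed by the F test, as did 84.7% of all probe sets. Tubg2 (99925_f_at) had signals of 250.9, 218.8, 240.3 and 285.7 in oocytes, 275.1, 302.9 and 292.2 in 1-cell embryos, 311.5, 307.1 and 260.6 in 2-cell embryos, 10, 52.0, 95.5 and 48.0 in 8-cell embryos, and 15.9, 43.4 and 33.4 in blastocysts. Every 8-cell and blastocyst array was below every earlier array, and the earlier stages overlapped. In 8-cell embryos it fell (-2.50 ± 0.35, adjusted p = 2.76e-06). Its changes in 1-cell and 2-cell embryos were 0.22 ± 0.35 and 0.01 ± 0.37, neither of them called.

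Tubgcp3, a core subunit of the gamma tubulin complex, went the other way. Its signals were 19.5, 17.6, 9.9 and 33.3 in oocytes, 4.0, 9.6 and 19.0 in 1-cell embryos, 43.0, 29.3 and 43.4 in 2-cell embryos, 119.0, 168.0, 99.3 and 152.1 in 8-cell embryos, and 52.8, 73.7 and 138.9 in blastocysts. It was below the filter on all oocyte and 1-cell arrays, and all 8-cell arrays lay above all 2-cell arrays. It rose in 2-cell embryos (1.22 ± 0.34, adjusted p = 0.00443) and in 8-cell embryos (1.54 ± 0.31, adjusted p = 2.58e-04; 0.94 under spike scaling, adjusted p = 0.0268).

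Tubg1, the gamma tubulin of most dividing cells, had signals of 145.1, 108.8, 144.2 and 142.4 in oocytes, 258.7, 208.8 and 212.5 in 1-cell embryos, 190.3, 144.5 and 179.8 in 2-cell embryos, 101.4, 148.1, 82.3 and 126.1 in 8-cell embryos, and 99.9, 100 and 106.6 in blastocysts. The 1-cell arrays lay above all other arrays. In 1-cell embryos it was higher than in oocytes (0.70 ± 0.19, adjusted p = 0.00586), but not under spike scaling (-0.37). In 8-cell embryos it was lower than in 2-cell embryos (-0.56 ± 0.19, adjusted p = 0.0173), a call lost without 2-cell array 1, 2-cell array 3 or 8-cell array 3 (adjusted p = 0.0510 to 0.0725). Tubgcp4, another subunit of the complex, was higher in blastocysts (139 ± 22.4, SD, n = 3) than in 8-cell embryos (74.2 ± 8.44, n = 4), a change of 0.81 ± 0.19, adjusted p = 0.00174.

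Kinesins of the spindle and of cell division alternated between stages, fell away or, for Kif11, rose late. All 9 probe sets, for 8 genes, were tested and all 9 differed by the F test, as did 84.7% of all probe sets. Of the 9, 7 were called in 1-cell embryos against oocytes (4 higher, 3 lower; 37.1% of all probe sets were called) and 5 in 2-cell against 1-cell embryos (1 higher, 4 lower; 47.2% of all). In later steps 7 were called in 8-cell against 2-cell embryos (4 higher, 3 lower; 54.1% of all) and 4 in blastocysts against 8-cell embryos (all lower; 42.5% of all). Under spike scaling these counts became 0 higher and 4 lower, 1 and 2, 0 and 4, and 4 higher and 0 lower. Of all 8067 probe sets they were 30 higher and 4638 lower, 1911 and 887, 840 and 3239, and 4641 and 193. Against oocytes, blastocysts had 1 rise, Kif11, and 6 falls, also under spike scaling. Of all 8067 probe sets, 32.2% rose and 32.1% fell there, and under spike scaling 1861 rose and 2996 fell.

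Many genes that peak in mitosis carry the element TTTGAA, the core of the cell cycle genes homology region, near their start, often with CCAAT boxes, which bind the factor NF-Y. The promoter windows of Kif23, Kif4, Kif11 and Kif22 are shown because these division genes follow different courses over the stages and still carry both elements. Each runs from 250 bases before to 50 bases after the start in RefSeq (GRCm38.p6), with TTTGAA and CCAAT in capitals as they read on the gene's strand, so TTCAAA and ATTGG are the same motifs on the other strand. They lie at chr9:61946750-61947049 (Kif23, minus strand), chrX:100625815-100626114 (Kif4, plus), chr19:37376132-37376431 (Kif11, plus) and chr7:127042371-127042670 (Kif22, minus).
Kif23: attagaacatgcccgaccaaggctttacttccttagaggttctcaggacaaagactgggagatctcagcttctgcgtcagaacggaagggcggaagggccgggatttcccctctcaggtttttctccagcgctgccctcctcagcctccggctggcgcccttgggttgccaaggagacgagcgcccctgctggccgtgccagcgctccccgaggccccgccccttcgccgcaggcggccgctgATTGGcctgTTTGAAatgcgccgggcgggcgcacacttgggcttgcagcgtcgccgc
Kif4: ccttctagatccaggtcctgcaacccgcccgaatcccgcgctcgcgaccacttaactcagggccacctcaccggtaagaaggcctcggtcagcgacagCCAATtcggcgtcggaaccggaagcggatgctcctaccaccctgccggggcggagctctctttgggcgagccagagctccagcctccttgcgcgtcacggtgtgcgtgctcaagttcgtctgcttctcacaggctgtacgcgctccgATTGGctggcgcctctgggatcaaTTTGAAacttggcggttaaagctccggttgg
Kif11: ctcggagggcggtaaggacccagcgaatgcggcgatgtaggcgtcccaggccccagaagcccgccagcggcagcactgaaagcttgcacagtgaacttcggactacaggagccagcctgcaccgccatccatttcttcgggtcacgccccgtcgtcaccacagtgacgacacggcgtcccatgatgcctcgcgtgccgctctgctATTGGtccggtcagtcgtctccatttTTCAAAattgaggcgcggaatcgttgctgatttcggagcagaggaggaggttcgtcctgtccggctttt
Kif22: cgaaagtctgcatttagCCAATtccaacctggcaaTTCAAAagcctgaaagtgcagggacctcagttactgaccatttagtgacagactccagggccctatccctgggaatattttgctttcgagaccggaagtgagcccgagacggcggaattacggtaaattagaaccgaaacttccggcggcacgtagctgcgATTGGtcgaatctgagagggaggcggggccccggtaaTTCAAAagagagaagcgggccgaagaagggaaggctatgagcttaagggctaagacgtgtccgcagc
In Kif23 the CCAAT box begins 7 bases before the start, with TTTGAA just past it. In Kif11 they begin 45 and 19 bases before the start, and in Kif22 the pair nearest the start begins 54 and 17 bases before it. Of the spindle and division kinesins, 7 genes had a window in the table (8 windows); 6 of the 7 held TTTGAA and 5 held CCAAT, on either strand. Of all 32851 windows, 17.9% held TTTGAA, 37.4% held CCAAT, and 13.2% held the related element TTTAAA. Among all 36 tested genes of the classes described here that had a window, 8 held TTTGAA and 18 held CCAAT. The Kif2a windows held none of these motifs. A match is a description of the letters and was not tested as a site.

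Kif23, the kinesin subunit of centralspindlin, which organises the central spindle in cytokinesis, rose and fell by turns over the course. Its signals were 2363.6, 3078.5, 2852.3 and 2715.6 in oocytes, 8319.5, 6521.5 and 5363.3 in 1-cell embryos, 1576.6, 1981.3 and 1820.2 in 2-cell embryos, 2557.0, 2305.8, 2524.0 and 3286.6 in 8-cell embryos, and 1230.6, 1091.3 and 1097.4 in blastocysts. The 1-cell arrays were above and the blastocyst arrays below all others, with no overlap between consecutive stages. It rose in 1-cell embryos (1.27 ± 0.16, adjusted p = 2.30e-06; 0.14 and not called under spike scaling) and fell in 2-cell embryos (-1.89 ± 0.17, adjusted p = 8.66e-09). In blastocysts it was lower than in 8-cell embryos (-1.21 ± 0.16, adjusted p = 3.90e-06; -0.02 and not called under spike scaling). Its rise in 8-cell embryos (0.56 ± 0.16, adjusted p = 0.00579) was not called after quantile normalization (0.28, adjusted p = 0.121) and turned to -0.08 under spike scaling. Blastocysts were lower than oocytes in every scaling tried (-1.26 ± 0.16, adjusted p = 6.51e-07; -1.62 under spike scaling).

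Kif20a, which brings the chromosomal passenger complex to the central spindle, followed the same alternation with both of its probe sets. The signals of 161856_f_at were 2061.0, 2624.1, 2161.4 and 2279.9 in oocytes, 6113.9, 5019.0 and 4644.6 in 1-cell embryos, 1483.9, 1855.2 and 2205.6 in 2-cell embryos, 2614.8, 2439.9, 3155.5 and 2728.5 in 8-cell embryos, and 1727.2, 1615.1 and 1833.2 in blastocysts. The 1-cell arrays were above all others, and no consecutive stages overlapped. The signals of 160501_at were 533.0, 677.8, 479.8 and 482.4 in oocytes, 834.3, 1083.1 and 882.8 in 1-cell embryos, 398.5, 459.0 and 474.2 in 2-cell embryos, 680.1, 594.4, 611.8 and 736.8 in 8-cell embryos, and 411.6, 391.6 and 563.6 in blastocysts. Here too the 1-cell arrays were the highest and no consecutive stages overlapped. In 1-cell embryos they rose by 1.20 ± 0.16 and 0.77 ± 0.17 (adjusted p = 2.61e-06 and 7.40e-04), against 0.06 and -0.34 under spike scaling, where neither was called and the second turned. In 2-cell embryos they fell (-1.51 ± 0.17, adjusted p = 1.16e-07, and -1.05 ± 0.18, adjusted p = 3.59e-05), a fall that spike scaling kept as a call for 161856_f_at (-1.28) and not for 160501_at (-0.82, adjusted p = 0.0587). In 8-cell embryos they rose (0.57 ± 0.16, adjusted p = 0.00345, and 0.55 ± 0.17, adjusted p = 0.00747), and spike scaling turned both to -0.07 and -0.08; quantile normalization ended the call of 161856_f_at (0.25, adjusted p = 0.146). In blastocysts they were lower than in 8-cell embryos (-0.66 ± 0.16, adjusted p = 0.00170, and -0.53 ± 0.17, adjusted p = 0.0134), which turned to 0.53 and 0.64 under spike scaling, and the call of 160501_at was lost without blastocyst array 1 or 2 (adjusted p = 0.0599 to 0.0744).

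Kif2c, a kinesin that shortens microtubules at kinetochores, alternated in the other phase. Its signals were 887.1, 887.2, 1052.5 and 904.5 in oocytes, 184.6, 319.6 and 348.8 in 1-cell embryos, 749.5, 840.8 and 1084.3 in 2-cell embryos, 226.7, 141.6, 257.7 and 304.9 in 8-cell embryos, and 198.4, 209.8 and 288.6 in blastocysts. Oocytes and 2-cell embryos were high and overlapped, and every array of the other stages lay below them. It was lower in 1-cell embryos (-1.72 ± 0.23, adjusted p = 4.24e-06), higher in 2-cell embryos (1.64 ± 0.25, adjusted p = 9.30e-06) and lower in 8-cell embryos (-1.92 ± 0.23, adjusted p = 3.81e-07). Each kept its direction and call under spike scaling. Kif2a, a related microtubule-shortening kinesin of spindle poles, had its highest mean in 1-cell embryos instead (345 ± 50.8, SD, n = 3, against 221 ± 55.4 in oocytes, n = 4). The rise of 0.65 ± 0.20, adjusted p = 0.0149 turned to -0.45 under spike scaling and was lost without oocyte array 2 or 1-cell array 1 (adjusted p = 0.0642 to 0.0853). Its later fall in 8-cell against 2-cell embryos was -0.95 ± 0.20, adjusted p = 4.27e-04.

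Kif11, which slides spindle microtubules apart and keeps the spindle bipolar, rose late. Its signals were 85.8, 38.0, 43.1 and 63.4 in oocytes, 84.9, 60.3 and 32.3 in 1-cell embryos, 52.1, 128.4 and 71.3 in 2-cell embryos, 221.3, 207.3, 204.5 and 176.4 in 8-cell embryos, and 350.5, 303.5 and 272.9 in blastocysts. The first 3 stages overlapped, the 8-cell arrays were above them, and the blastocyst arrays were above all others. It rose in 8-cell embryos (1.24 ± 0.28, adjusted p = 8.03e-04), though not as a call under spike scaling (0.64, adjusted p = 0.106), and blastocysts were higher than oocytes (2.27 ± 0.28, adjusted p = 3.97e-07; 2.00 under spike scaling).

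Kif4, a kinesin that binds chromosomes and the central spindle, was highest in oocytes. Its signals were 940.0, 849.6, 1141.1 and 1010.6 in oocytes, 445.7, 521.5 and 474.3 in 1-cell embryos, 509.9, 511.6 and 509.7 in 2-cell embryos, 241.2, 246.2, 270.8 and 360.5 in 8-cell embryos, and 207.2, 180.6 and 245.1 in blastocysts. Oocyte arrays were above all others, the 1-cell and 2-cell arrays overlapped in the middle, and the 8-cell and blastocyst arrays were the lowest. Falls came in 1-cell embryos (-1.01 ± 0.16, adjusted p = 3.25e-05) and in 8-cell embryos (-0.86 ± 0.16, adjusted p = 1.02e-04). Blastocysts differed from oocytes by -2.17 ± 0.16, adjusted p = 1.19e-10. They differed from 8-cell embryos by -0.38 ± 0.16, adjusted p = 0.0616, which turned to 0.75, adjusted p = 0.0482, under spike scaling. Kif22 (95118_r_at), a chromosome-arm kinesin, was lower in 1-cell embryos (1592 ± 142, SD, n = 3) than in oocytes (2867 ± 185, n = 4), a change of -0.85 ± 0.19, adjusted p = 0.00114. Its fall in blastocysts against 8-cell embryos (-0.68 ± 0.19, adjusted p = 0.00616) turned to 0.50 under spike scaling and was not called after quantile normalization (adjusted p = 0.0630) or without blastocyst array 2 (adjusted p = 0.0618). Kifc1 (98471_f_at), a minus-end kinesin that focuses spindle poles, was called in none of the 5 comparisons, and its 8-cell arrays spread over 31.2 to 222.9.

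**Figure D4:**
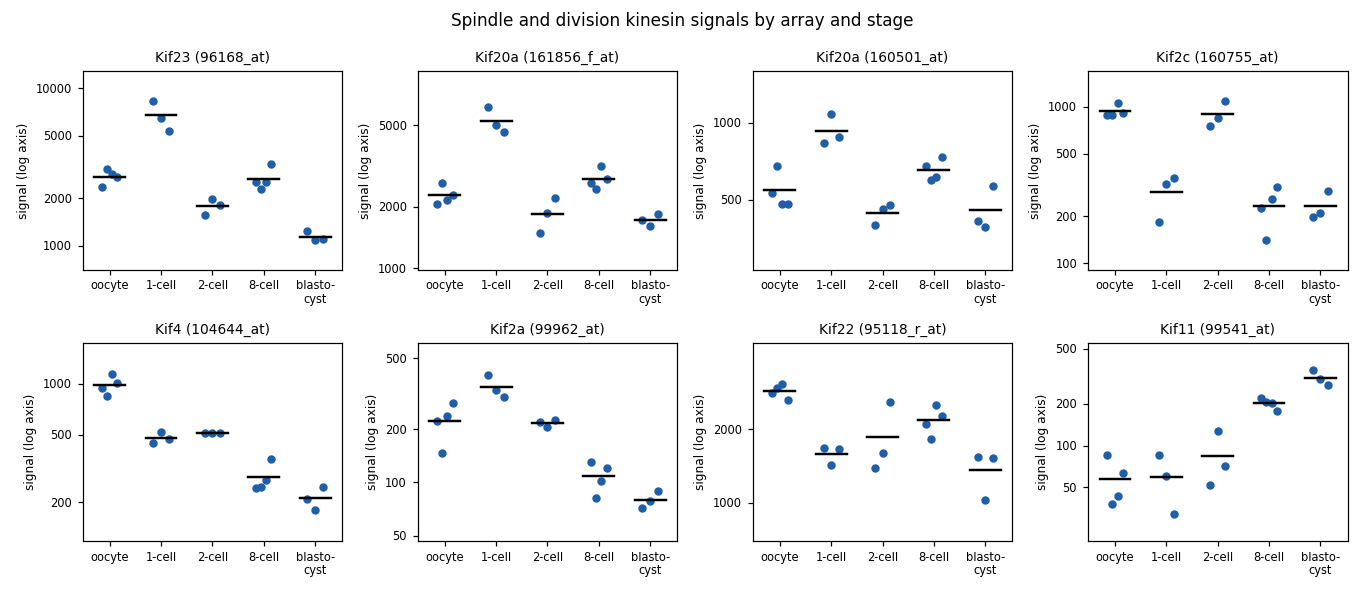
Signals of 8 spindle and division kinesin probe sets on each of the 17 arrays (points) with the stage mean (bar), by stage, on a log axis, with the arrays as the authors scaled them. Kif23 and both Kif20a probe sets are highest in 1-cell embryos (Kif20a 160501_at turns against oocytes under spike scaling) and higher in 8-cell than in 2-cell embryos, which turns under spike scaling for all 3; Kif2c is high in oocytes and 2-cell embryos, Kif4 is highest in oocytes, and Kif11 is highest in blastocysts.

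Kinesins of transport included several that stayed below the filter. Of 20 probe sets for 14 genes of transport and other kinesins, 9 probe sets for 8 genes were tested, against 8067 of the 12488 on the array. The 11 that were not include the neuronal motors Kif1a (highest signal 21.9 on any array), Kif5a (42.4 and 9.7 for its 2 probe sets) and Kif5c (14.3), and both probe sets of Kif1b and of Kifc2. The 9 that were tested all differed by the F test, as did 84.7% of all probe sets. Kif3c, Kifap3, Kif3a 100398_at and both Kif9 probe sets passed the filter only through the stages where they were high. Their changes from or to those stages, and their part in the F test count, are to be read with that limit. At the edge of the filter, the third highest signal of Kif9 161035_at was 41.9, of Kif3b 50.9 and of Kif3a 100398_at 60.7, just past it, and that of Kif1c was 36.6, just short.

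Kif3c, a kinesin that pairs with Kif3a and is best known from neurons, had the largest change of any consecutive step in these classes with the authors' scaling. Its signals were 8.4, 22.2, 4.4 and 4.4 in oocytes, 12, 4.9 and 4.0 in 1-cell embryos, 150.4, 185.0 and 271.0 in 2-cell embryos, 89.6, 78.4, 56.0 and 63.8 in 8-cell embryos, and 18.7, 7.4 and 7.6 in blastocysts. All 2-cell arrays lay above all 8-cell arrays, and these above all arrays of the other stages. It rose in 2-cell embryos (3.56 ± 0.32, adjusted p = 6.56e-09), a size that depends on the offset because every 1-cell array was below the filter, then fell in 8-cell embryos (-1.34 ± 0.30, adjusted p = 7.24e-04) and in blastocysts (-1.92 ± 0.30, adjusted p = 2.58e-05), with the same directions and calls under spike scaling. The summed oviduct and blood markers were also high in 2-cell embryos, and 8-cell array 2, with the highest oviduct signal, had a Kif3c signal of 78.4. Their part in the Kif3c values was not tested.

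The partners of Kif3c moved differently. Kif3a 100398_at was lower in blastocysts (16.9 ± 12.4, SD, n = 3, every array below the filter) than in oocytes (60.7 ± 3.57, n = 4), a change of -1.45 ± 0.29, adjusted p = 1.77e-04. The other Kif3a probe set, 161275_at, stayed below the filter, with stage means of 14.0 to 19.0. Kifap3 (100113_s_at), the accessory subunit that links Kif3 motors to cargo, had signals of 3.3, 28.2, 22.5 and 31.3 in oocytes, 10.7, 12.5 and 16.7 in 1-cell embryos, 38.5, 24.7 and 28.1 in 2-cell embryos, 58.0, 35.0, 39.3 and 41.4 in 8-cell embryos, and 64.8, 73.6 and 92.7 in blastocysts. Its 3 blastocyst arrays were above all others, and its oocyte, 1-cell and 2-cell arrays were all below the filter. It was higher in blastocysts than in oocytes (1.55 ± 0.31, adjusted p = 1.52e-04), and no consecutive step was called (adjusted p = 0.0634 to 0.488). The other Kifap3 probe set stayed below the filter, with a highest signal of 13.1.

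Kif9, a kinesin of motile cilia and the sperm flagellum, was highest in oocytes. The signals of 92490_at were 96.4, 107.5, 140.0 and 116.3 in oocytes, 27.9, 30.1 and 27.3 in 1-cell embryos, 61.2, 38.4 and 45.1 in 2-cell embryos, 17.1, 35.4, 8.6 and 5.4 in 8-cell embryos, and 5.8, 27.6 and 15.2 in blastocysts. All oocyte arrays lay above all others, and the 1-cell, 8-cell and blastocyst arrays were below the filter. Its signal fell in 1-cell embryos (-1.67 ± 0.32, adjusted p = 2.52e-04) and in 8-cell embryos (-1.20 ± 0.32, adjusted p = 0.00299). Its other probe set, 161035_at, also fell in 8-cell embryos (-1.51 ± 0.32, adjusted p = 3.89e-04). Kif5b, the conventional kinesin heavy chain of most cells, was higher in blastocysts (254 ± 46.8, SD, n = 3) than in oocytes (103 ± 35.0, n = 4), a change of 1.25 ± 0.22, adjusted p = 3.79e-05. Its rise in 8-cell embryos (0.76 ± 0.22, adjusted p = 0.00595) was not called under spike scaling (0.14). Kifc3, a minus-end kinesin known from cell junctions, was highest in 8-cell embryos (84.2 ± 17.4, n = 4). In blastocysts it was lower (25.6 ± 8.82, n = 3), a change of -1.39 ± 0.33, adjusted p = 0.00176 that was not called under spike scaling (-0.43). Its rise over 2-cell embryos (1.07 ± 0.33, adjusted p = 0.00928) was lost without 2-cell array 3 (adjusted p = 0.115) and under spike scaling (0.47). Kif16b, an endosome motor, rose in 2-cell embryos (0.84 ± 0.24, adjusted p = 0.00702), and Kif3b was called in no comparison.

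Kinesin light chains, which bind cargo for the conventional kinesin, were highest in oocytes for Klc1. Of 5 probe sets, 4 were tested and all 4 differed by the F test, as did 84.7% of all probe sets. Klc1 97985_f_at had signals of 462.2, 398.0, 521.8 and 416.2 in oocytes, 181.0, 277.4 and 266.3 in 1-cell embryos, 166.0, 236.4 and 166.1 in 2-cell embryos, 152.2, 100, 170.4 and 140.6 in 8-cell embryos, and 228.5, 245.5 and 175.4 in blastocysts. Klc1 97984_i_at had signals of 213.0, 258.1, 241.3 and 233.9 in oocytes, 100, 166.6 and 219.6 in 1-cell embryos, 77.9, 85.2 and 118.1 in 2-cell embryos, 68.9, 65.4, 77.2 and 65.4 in 8-cell embryos, and 96.7, 128.8 and 155.1 in blastocysts. Klc1 93565_at had signals of 102.3, 105.8, 103.2 and 105.1 in oocytes, 93.2, 100.1 and 110 in 1-cell embryos, 81.7, 80 and 67.8 in 2-cell embryos, 73.3, 86.3, 52.6 and 34.4 in 8-cell embryos, and 54.9, 45.6 and 58.9 in blastocysts. The oocyte arrays were above all others for 97985_f_at and overlapped the highest 1-cell array for 97984_i_at. For 93565_at the oocyte and 1-cell arrays overlapped above the rest.

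In blastocysts against oocytes all 3 Klc1 probe sets were lower, with changes of -1.02 ± 0.20, -0.86 ± 0.22 and -0.85 ± 0.22 (adjusted p = 1.38e-04, 0.00183 and 0.00214). In 1-cell embryos 97985_f_at fell (-0.88 ± 0.20, adjusted p = 0.00144), whereas the change of 93565_at was -0.04 ± 0.22, adjusted p = 0.918. The fall of 97984_i_at (-0.58 ± 0.22, adjusted p = 0.0467) was lost without any of 11 arrays. Blastocysts were higher than 8-cell embryos for 97984_i_at (0.76 ± 0.22, adjusted p = 0.00870) and 97985_f_at (0.59 ± 0.20, adjusted p = 0.0223). The first call was lost without blastocyst array 3 (adjusted p = 0.0588), the second without 8-cell array 2, blastocyst array 1 or blastocyst array 2 (adjusted p = 0.0721 to 0.0952). Klc4 went the other way: blastocysts had 160 ± 9.86 (SD, n = 3) and oocytes 114 ± 8.23 (n = 4), a change of 0.45 ± 0.16, adjusted p = 0.0211 that was not called without blastocyst array 2 (adjusted p = 0.0679) or under spike scaling (0.12).

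The cytoplasmic dynein chains peaked at different stages. Of 10 probe sets, 8 were tested and 7 differed by the F test. The light chains Dynlt1b and Dynlt3 stayed below the filter, with highest signals of 17.7 and 21.7. Dync1h1, the heavy chain with the motor domain, had signals of 93.5, 65.3, 119.8 and 66.2 in oocytes, 53.4, 53.4 and 65.3 in 1-cell embryos, 126.6, 139.9 and 150.5 in 2-cell embryos, 121.6, 136.9, 131.6 and 144.0 in 8-cell embryos, and 334.2, 312.8 and 403.7 in blastocysts. All blastocyst arrays lay above all others, and the 2-cell and 8-cell arrays above those of oocytes and 1-cell embryos. It rose in 2-cell embryos (1.14 ± 0.21, adjusted p = 1.00e-04) and in blastocysts (1.32 ± 0.20, adjusted p = 1.26e-05), with the same directions and calls under spike scaling.

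Dync1i2, an intermediate chain that binds cargo and dynactin, was highest in 1-cell embryos. Its signals were 485.5, 663.6, 399.0 and 574.6 in oocytes, 900.2, 933.6 and 766.7 in 1-cell embryos, 487.5, 306.8 and 189.9 in 2-cell embryos, 70.9, 97.1, 84.7 and 72.0 in 8-cell embryos, and 163.7, 155.0 and 190.9 in blastocysts. The 1-cell arrays were above all others and the 8-cell arrays below all others. From there it fell in 2-cell embryos (-1.46 ± 0.25, adjusted p = 3.82e-05) and in 8-cell embryos (-1.79 ± 0.23, adjusted p = 1.00e-06). It rose in blastocysts (0.98 ± 0.23, adjusted p = 0.00174). Its rise in 1-cell embryos (0.72 ± 0.23, adjusted p = 0.0183) turned to -0.40 under spike scaling and was lost without oocyte array 3, 1-cell array 1 or 1-cell array 2 (adjusted p = 0.0607 to 0.0707). Dync1i1 (103809_r_at), an intermediate chain best known from neurons, was called in no comparison.

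The paired LC8 light chains Dynll1 and Dynll2, hub proteins that also bind partners outside dynein, moved in opposite directions in the first 2 steps. Dynll1 (96298_f_at) had signals of 3064.2, 2831.7, 3254.6 and 3524.9 in oocytes, 1515.8, 1746.8 and 2171.5 in 1-cell embryos, 5695.3, 6093.5 and 7364.8 in 2-cell embryos, 3115.8, 3110.1, 3880.0 and 2518.9 in 8-cell embryos, and 4285.4, 5374.4 and 4500.5 in blastocysts. The 1-cell arrays were the lowest and the 2-cell arrays the highest. Dynll2 101929_at had signals of 253.8, 170.2, 143.1 and 139.0 in oocytes, 685.2, 596.3 and 497.6 in 1-cell embryos, 107.0, 86.3 and 90.4 in 2-cell embryos, 36.9, 36, 23.9 and 25.1 in 8-cell embryos, and 38.5, 74.5 and 42.6 in blastocysts. Here the 1-cell arrays were the highest and the 8-cell and blastocyst arrays the lowest. Its second probe set, 161960_f_at, gave 158.3, 71.7, 102.2 and 74.5 in oocytes, 276.8, 277.9 and 235.4 in 1-cell embryos, 54.8, 51.2 and 76.8 in 2-cell embryos, 61.7, 15.2, 42.0 and 44.7 in 8-cell embryos, and 61.7, 61.2 and 46.5 in blastocysts, again with every 1-cell array above all others.

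In 1-cell embryos against oocytes Dynll1 was lower (-0.81 ± 0.17, adjusted p = 4.68e-04), and both Dynll2 probe sets were higher (1.71 ± 0.23, adjusted p = 4.69e-06, and 1.34 ± 0.29, adjusted p = 9.25e-04), not as calls under spike scaling (0.62 and 0.29). In 2-cell embryos Dynll1 rose (1.82 ± 0.18, adjusted p = 1.87e-08) and both Dynll2 probe sets fell (-2.51 ± 0.25, adjusted p = 2.51e-08, and -1.94 ± 0.31, adjusted p = 2.11e-05). In 8-cell embryos Dynll1 fell (-1.02 ± 0.17, adjusted p = 1.98e-05), as did Dynll2 101929_at (-1.36 ± 0.23, adjusted p = 3.91e-05). Dynll1 rose again in blastocysts (0.59 ± 0.17, adjusted p = 0.00667), and its excess over oocytes (0.57 ± 0.17, adjusted p = 0.00475) was not called after quantile normalization (0.30, adjusted p = 0.117) or under spike scaling (0.21).

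Dynlrb1, the roadblock light chain, dipped in 1-cell embryos with both probe sets. Its signals on 94862_i_at averaged 322 ± 54.3 in 1-cell embryos (SD, n = 3) and 1144 ± 165 in oocytes (n = 4), a change of -1.80 ± 0.28, adjusted p = 2.23e-05. The other, 94863_r_at, also fell (-1.45 ± 0.22, adjusted p = 2.09e-05). Neither probe set was called in blastocysts against oocytes.

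Dynactin subunits fell in the 1-cell embryo, and Dctn2 and Dctn3 rose again in the blastocyst. Of 6 probe sets, 5 were tested and 4 differed by the F test. Of the 5, 4 were lower in 1-cell embryos than in oocytes, against 19.8% of all probe sets. Dctn3, a subunit of the dynactin shoulder, had signals of 724.0, 720.3, 662.8 and 692.6 in oocytes, 310.9, 398.4 and 423.1 in 1-cell embryos, 165.9, 154.7 and 199.7 in 2-cell embryos, 261.5, 336.2, 295.3 and 285.6 in 8-cell embryos, and 747.9, 605.5 and 824.4 in blastocysts. The 2-cell arrays were below all others, and oocytes and blastocysts overlapped at the top. After a fall in 1-cell embryos (-0.88 ± 0.16, adjusted p = 1.10e-04) it fell again in 2-cell embryos (-1.07 ± 0.17, adjusted p = 1.39e-05), the second not called under spike scaling (-0.85, adjusted p = 0.0545). Its rise in 8-cell embryos (0.73 ± 0.16, adjusted p = 4.22e-04) was not called under spike scaling (0.11), and that in blastocysts was (1.26 ± 0.16, adjusted p = 1.20e-06).

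Dctn2 (94300_f_at), which forms the shoulder with it, had signals of 122.7, 109.6, 119.2 and 148.8 in oocytes, 70.7, 75.4 and 82.0 in 1-cell embryos, 71.8, 58.6 and 56.7 in 2-cell embryos, 116.7, 145.5, 112.2 and 113.6 in 8-cell embryos, and 183.1, 189.0 and 184.9 in blastocysts. Blastocyst arrays were the highest, and the 1-cell and 2-cell arrays were the lowest and overlapped. It was lower in 1-cell embryos (-0.64 ± 0.17, adjusted p = 0.00538), higher in 8-cell embryos (0.86 ± 0.17, adjusted p = 2.28e-04; 0.27 and not called under spike scaling) and higher again in blastocysts (0.57 ± 0.17, adjusted p = 0.0107). On 8-cell array 2, the array with the high oviduct signal, it was at 145.5 against 112.2 to 116.7 on the other 8-cell arrays. The other Dctn2 probe set stayed just short of the filter, where the third highest signal was 40.5.

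Dctn6, a subunit of the dynactin pointed end, fell in 1-cell embryos and was called in no later step. Its signals were 586.1, 540.4, 536.5 and 558.5 in oocytes, 297.3, 321.4 and 238.5 in 1-cell embryos, 214.8, 260.7 and 170.3 in 2-cell embryos, 226.6, 211.6, 231.0 and 291.0 in 8-cell embryos, and 252.8, 238.7 and 314.0 in blastocysts. Oocyte arrays were above all others, which overlapped each other. In 1-cell embryos it fell (-0.94 ± 0.17, adjusted p = 1.35e-04). Blastocysts differed from oocytes by -1.03 ± 0.17, adjusted p = 1.67e-05. Dctn5, its partner at the pointed end, fell in 1-cell embryos (-0.95 ± 0.20, adjusted p = 7.28e-04) and was not called in blastocysts against oocytes (-0.33 ± 0.20, adjusted p = 0.160). Its rise in 8-cell embryos (0.49 ± 0.20, adjusted p = 0.0446) turned to -0.12 under spike scaling and was lost without any of 7 arrays. Dctn1, the large subunit that binds microtubules, was called in no comparison, and its signal was 66.2 on 8-cell array 2 against 9.1 to 14.2 on the other 8-cell arrays.

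**Figure D5:**
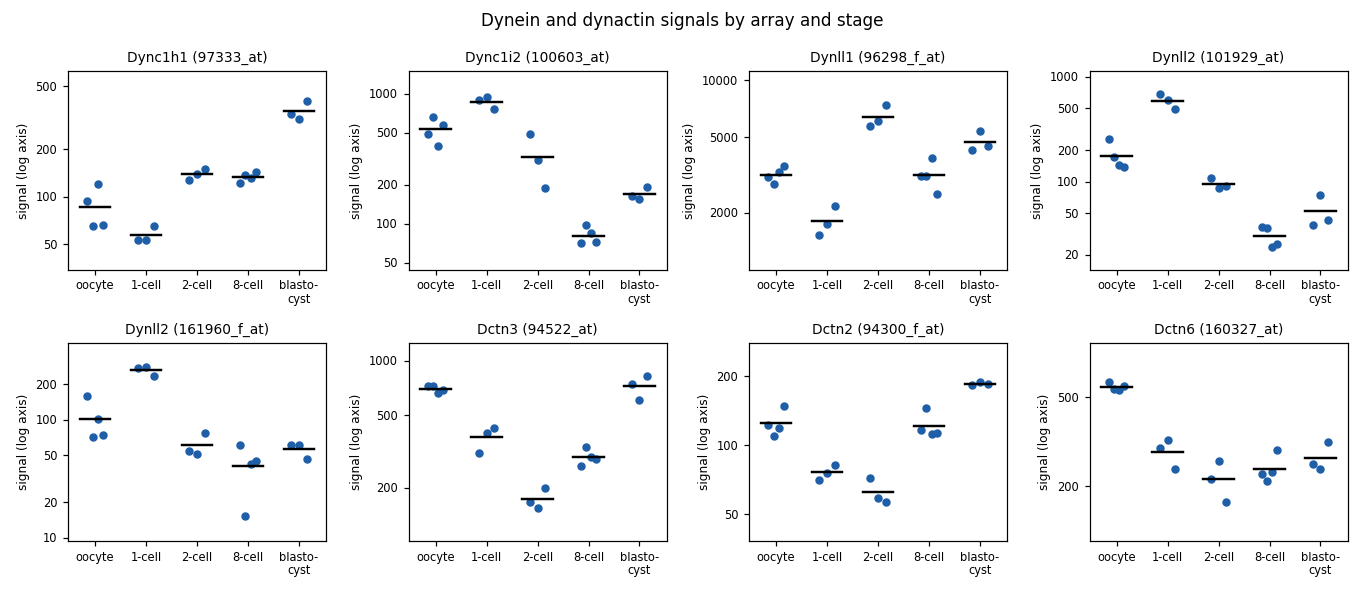
Signals of 8 dynein and dynactin probe sets on each of the 17 arrays (points) with the stage mean (bar), by stage, on a log axis, with the arrays as the authors scaled them. Dync1h1 is highest in blastocysts, Dync1i2 and both Dynll2 probe sets in 1-cell embryos (Dync1i2 turns there under spike scaling), Dynll1 in 2-cell embryos, and Dctn3 is lowest in 2-cell embryos.

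Genes that work with these motors were counted by the same fit, 1 probe set a gene. This was the tested probe set with the highest mean signal, and others of the gene are not described. The shares of all probe sets to read them against are 17.3% higher and 19.8% lower in 1-cell embryos, 26.0% and 21.2% in 2-cell embryos, 25.8% and 28.3% in 8-cell embryos, 21.8% and 20.7% in blastocysts against 8-cell embryos, and 32.2% and 32.1% in blastocysts against oocytes. Of 14 tested genes for spindle assembly and microtubule plus ends, 3 rose and 5 fell in 1-cell embryos, 3 rose and 7 fell in 2-cell embryos, 3 rose and 3 fell in 8-cell embryos, and 5 rose and 5 fell in blastocysts against 8-cell embryos. Against oocytes, blastocysts had 3 higher and 9 lower. Under spike scaling the consecutive steps had 0 higher and 9 lower, 2 and 3, 0 and 7, and 8 and 0. Tacc3, a spindle stabiliser, fell in 1-cell embryos (-2.72 ± 0.23, adjusted p = 6.06e-09), and Ran, the GTPase that guides spindle assembly around chromosomes, was higher in blastocysts than in oocytes (2.28 ± 0.15, adjusted p = 1.79e-11). Nusap1, which bundles spindle microtubules, was lower (-3.05 ± 0.20, adjusted p = 1.43e-11).

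Of 11 genes of cytokinesis and the central spindle, 4 rose and 1 fell in 1-cell embryos, 2 rose and 5 fell in 2-cell embryos, 1 rose and 4 fell in 8-cell embryos and 2 rose and 4 fell in blastocysts against 8-cell embryos. Spike scaling left 0 rises in 1-cell and 8-cell embryos and 0 falls in that last step. Blastocysts had 2 higher and 7 lower than oocytes, against 32.2% and 32.1% of all probe sets. Rhoa, the GTPase of the contractile ring, rose in 2-cell embryos (3.22 ± 0.19, adjusted p = 7.23e-12), and Prc1, the microtubule bundler that Kif4 binds, was lower in blastocysts than in oocytes (-2.08 ± 0.15, adjusted p = 4.46e-11). Racgap1, the partner of Kif23 in centralspindlin, was called in no comparison with the authors' scaling. Its changes were -0.38 ± 0.18, -0.01 ± 0.19, 0.02 ± 0.18 and 0.35 ± 0.18 in the consecutive steps, where Kif23 was called in each. Under spike scaling the Racgap1 changes became -1.47, 0.20, -0.59 and 1.48. Kif23 was then called only in 2-cell embryos, with 0.14, -0.08 and -0.02 in the 1-cell, 8-cell and blastocyst steps.

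Of 7 centrosome genes, 2 rose and 2 fell in 1-cell embryos, 1 rose and 4 fell in 2-cell and again in 8-cell embryos, and 1 rose and 1 fell in blastocysts against 8-cell embryos. Blastocysts had 1 higher and 4 lower than oocytes, against 32.2% and 32.1% of all probe sets. Under spike scaling the consecutive steps had 0 higher and 3 lower, 1 and 1, 0 and 4, and 5 and 1. Nin, a protein that anchors microtubules at centrosomes, fell in blastocysts against 8-cell embryos (-3.61 ± 0.20, adjusted p = 9.29e-12), and Plk4, the kinase that starts centriole duplication, fell in 8-cell embryos (-2.55 ± 0.21, adjusted p = 1.47e-09). Of 6 dynein regulators, 1 rose and 3 fell in 1-cell embryos, 1 rose and 1 fell in 2-cell embryos, 0 rose and 3 fell in 8-cell embryos, and 1 rose and 2 fell in blastocysts against 8-cell embryos. Blastocysts had 0 higher and 3 lower than oocytes, against 32.2% and 32.1% of all probe sets. Under spike scaling the consecutive steps had 0 higher and 3 lower, 2 and 1, 0 and 4, and 3 and 0. Pafah1b1, also known as Lis1, was higher in 1-cell embryos (0.89 ± 0.18, adjusted p = 4.30e-04; -0.18 and no longer higher under spike scaling) and lower in 2-cell embryos (-1.09 ± 0.19, adjusted p = 6.33e-05).

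Of 14 genes for tubulin folding, severing and dynamics, 4 rose and 3 fell in 1-cell embryos, 4 rose and 4 fell in 2-cell and again in 8-cell embryos, and 4 rose and 3 fell in blastocysts against 8-cell embryos. Blastocysts had 4 higher and 4 lower than oocytes. Under spike scaling the consecutive steps had 0 higher and 8 lower, 4 and 1, 1 and 6, and 9 and 1. Mapt, the tau protein known from axons, was higher in blastocysts than in oocytes (5.80 ± 0.32, adjusted p = 1.04e-12), the widest change on these lists. Stmn3, a neuronal relative of the microtubule destabiliser stathmin, rose in 2-cell embryos (3.72 ± 0.29, adjusted p = 5.27e-10) and fell in blastocysts (-3.06 ± 0.27, adjusted p = 1.08e-08), and Spast, which severs microtubules, fell in 8-cell embryos (-2.20 ± 0.19, adjusted p = 2.31e-09). Tbcb, a tubulin folding cofactor, dipped in 1-cell embryos (-2.40 ± 0.24, adjusted p = 5.83e-08) and rose in 2-cell embryos (1.96 ± 0.25, adjusted p = 1.12e-06). The 2 axonemal dynein genes tested, Dnah8 and Dnal4, were both lower in blastocysts than in oocytes (-2.22 ± 0.30, adjusted p = 1.07e-06, and -1.98 ± 0.28, adjusted p = 1.83e-06).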

How the data were processed

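Mouse oocytes and embryos of 5 stages were measured on 17 arrays. The authors deposited 1 signal intensity per probe set and array, on a linear scale; the software behind these intensity values is not given in the sources used here. The mean of the middle 96% of values was 150.097 to 150.133 on every array, so no further scaling was applied, and array medians were 34.05 to 49.15. Signals were taken to log2 after adding 11, the 25th percentile. Probe sets above 41.1 on at least 3 arrays were kept and 66 control probe sets left out. Stage means were estimated from the 17 arrays together with limma 3.58.1 in R 4.3.3 (lmFit, then eBayes with an intensity trend, 12 residual degrees of freedom), two-sided, with Benjamini and Hochberg adjustment in each of 5 comparisons. The fit was tested on simulated data.

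Values on every array are given for the 3 widest-ranging probe sets of each class that the F test called, for those called in all 4 consecutive steps, and for a few others chosen after their values were seen. Members, classes and pathway lists were chosen with earlier results of these data known. The number of arrays limits the precision. Promoters came from a RefSeq table (GRCm38.p6) and were matched by symbol. Alternatives were quantile normalization, spike scaling, offsets of 1 and 32, no filter and a stricter one (152.5), probe sets without a marked name alone, a replicate block, and each array left out.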

Additional observations from a re-analysis of the deposited data

Results flagged for a closer look

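Among 108 groups of 4 arrays (oocytes and 8-cell embryos, for each of the 54 tested probe sets), 6 held an array far from its 3 neighbours by Dixon's criterion, which chance meets in about 1 in 20 groups. Tuba4a had a signal of 153.7 on 8-cell array 1, against 49.0 to 57.4 on the other 8-cell arrays. Tubg1 had 108.8 on oocyte array 2, against 142.4 to 145.1 on the other oocyte arrays. Kif2c had 1052.5 on oocyte array 3, against 887.1 to 904.5. Kif9 161035_at had 14.7 on 8-cell array 4, against 2.4 to 3.6, all below the filter. On 8-cell array 2, Dctn1 had 66.2, against 9.1 to 14.2 on the other 8-cell arrays, and Dctn2 94300_f_at had 145.5, against 112.2 to 116.7. The same array carried an Ovgp1 signal of 6212.4 and an Ltf signal of 827.7. The part of that signal in the dynactin values was not tested.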

How the results depend on the processing

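Of 136 called changes of single probe sets, 128 kept direction and call after quantile normalization, 130 with an offset of 1, 136 with an offset of 32, 127 with no filter, 112 of the 112 still tested with the stricter filter, and 70 of the 70 on probe sets without a marked name. The last 2 settings refit the same signals and only drop other probe sets. They are therefore no check on dim signals or on hybridisation to other transcripts. Spike scaling kept 96, ended 25 and turned 15. The turned values were, in 1-cell embryos minus oocytes, -0.17 for Tubb2a 161614_r_at, -0.06 for Tubb3 161612_f_at, -0.37 for Tubg1, -0.34 for Kif20a 160501_at, -0.45 for Kif2a and -0.40 for Dync1i2. In 8-cell minus 2-cell embryos they were -0.04 for Tuba1c, -0.08 for Kif20a 160501_at, -0.07 for Kif20a 161856_f_at, -0.08 for Kif23 and -0.12 for Dctn5. In blastocysts minus 8-cell embryos they were 0.24 for Tubb2a 161614_r_at, 0.64 for Kif20a 160501_at, 0.53 for Kif20a 161856_f_at and 0.50 for Kif22. Spike scaling also called 40 of the 54 in that last comparison, against 19. Of all 8067 it called 4641 higher and 193 lower there. The cause of these differences was not tested. With the 31 tested probe sets without a marked name alone, the counts called were 14, 13, 18, 8 and 18 in the 5 comparisons and 27 by the F test, against 32, 22, 28, 19, 35 and 49 of 54. Both the number tested and the kind of probe set differ between these counts, and the share of all probe sets without a marked name that was called was not counted. Leaving out each array in turn gave 27 to 32, 20 to 24, 26 to 33, 17 to 23 and 33 to 36 calls, and 47 to 50 by the F test. Without 8-cell array 2 the 8-cell comparisons had 26 and 20 calls.

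With the replicate number as a block, 29, 22, 28, 19 and 34 probe sets were called in the 5 comparisons and 48 by the F test, and 131 of the 136 changes kept their call. The numbers did not pair the samples: deviations of same-numbered arrays correlated at -0.08 to 0.13 (median 0.02, 31 pairs), and of others at -0.27 to 0.36 (median -0.01, 84 pairs). Dim signals limit the fold of probe sets near or below 41.1.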
